A study of Homo sapiens with 12 samples.

Results

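MIR345, MIR197, MIR1180 and MIR612 are 4 microRNA precursor genes that were selected on their higher expected counts in the melanoma cell line A375 than in its dabrafenib-resistant derivative A375-BIR. They are 4 of the 1881 precursor genes in the count files. A375 is a human melanoma cell line, and A375-BIR was obtained from it by growth in rising concentrations of dabrafenib, an inhibitor of the kinase BRAF. Small RNA was sequenced from A375 in DMSO, A375 in dabrafenib, A375-BIR in DMSO and A375-BIR in dabrafenib, with 3 libraries in each of the 4 groups and 12 in all. Cells were kept for 48 h in 200 nM dabrafenib or in 0.1% DMSO, the vehicle, and the libraries of a group are labelled as biological replicates. A375-BIR is a single resistant derivative, so that resistance and any other difference between these cell cultures cannot be told apart.

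A microRNA is cut from a hairpin precursor and guides a silencing complex to messenger RNAs, mainly through pairing of its seed with their 3′ untranslated regions. Some precursors have a transcript of their own, and others lie in the intron or exon of a longer host transcript. Dabrafenib blocks the signal of mutant BRAF to the MAP kinase cascade, which drives proliferation in many melanomas.

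The mature sequences are shown because they give the identity of the molecules behind the precursor counts. They were taken from RefSeq (GRCh38.p14), which matched 3 of the 4 precursors, and are written 5′ to 3′ with the seed, bases 2 to 8, in capitals.
hsa-miR-345-5p: gCUGACUCcuaguccagggcuc
hsa-miR-345-3p: gCCCUGAAcgaggggucuggag
hsa-miR-197-5p: cGGGUAGAgagggcagugggagg
hsa-miR-197-3p: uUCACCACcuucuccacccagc
hsa-miR-1180-5p: gGACCCACccggccgggaaua
hsa-miR-1180-3p: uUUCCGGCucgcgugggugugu
No seed was shared among these sequences. The seed of miR-197-5p was also that of miR-3132, whose precursor MIR3132 had 0 counts over all libraries, and the seed of miR-1180-5p was that of miR-7114-3p, whose precursor MIR7114 had 2 counts in all. Counts were given for a precursor, so the 5p and 3p arms were not told apart. Among the 1506 precursors with a RefSeq hairpin, none had 18 consecutive bases in common with MIR345, MIR197 or MIR1180. The longest stretch found was 16 bases, between MIR345 and the reverse complement of MIR378I.

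The precursors lie on different chromosomes and in different kinds of locus (hg38, GENCODE v44). MIR612 (ENSG00000283791.1, chr11:65444458-65444557, plus strand) lies in an exon of NEAT1, a long non-coding RNA whose long isoform is the scaffold of nuclear paraspeckles. Of the 9 annotated NEAT1 transcripts, 1 spans MIR612, with a length of 22743 bases, and the precursor starts 21685 bases into the gene, beyond the end of the other transcripts. MIR1180 (ENSG00000221540.1, chr17:19344506-19344574, minus strand) lies in an intron of B9D1, which encodes a protein of the base of the primary cilium, and 14 of 23 B9D1 transcripts span it. MIR197 (ENSG00000284443.1, chr1:109598893-109598967, plus strand) lies in the 3′ untranslated region of the 1 annotated transcript of GNAI3, which encodes an inhibitory G protein subunit. MIR345 (ENSG00000198984.1, chr14:100307859-100307956, plus strand) is intergenic, 1312 bases from SLC25A29, a mitochondrial carrier gene on the opposite strand. NEAT1, B9D1 and GNAI3 themselves have 0 rows in these small RNA files, and host transcript levels were not analysed here. The GC content of the hairpin was 69.6% for MIR1180, 62.7% for MIR197 and 60.2% for MIR345.

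**Figure D1:**
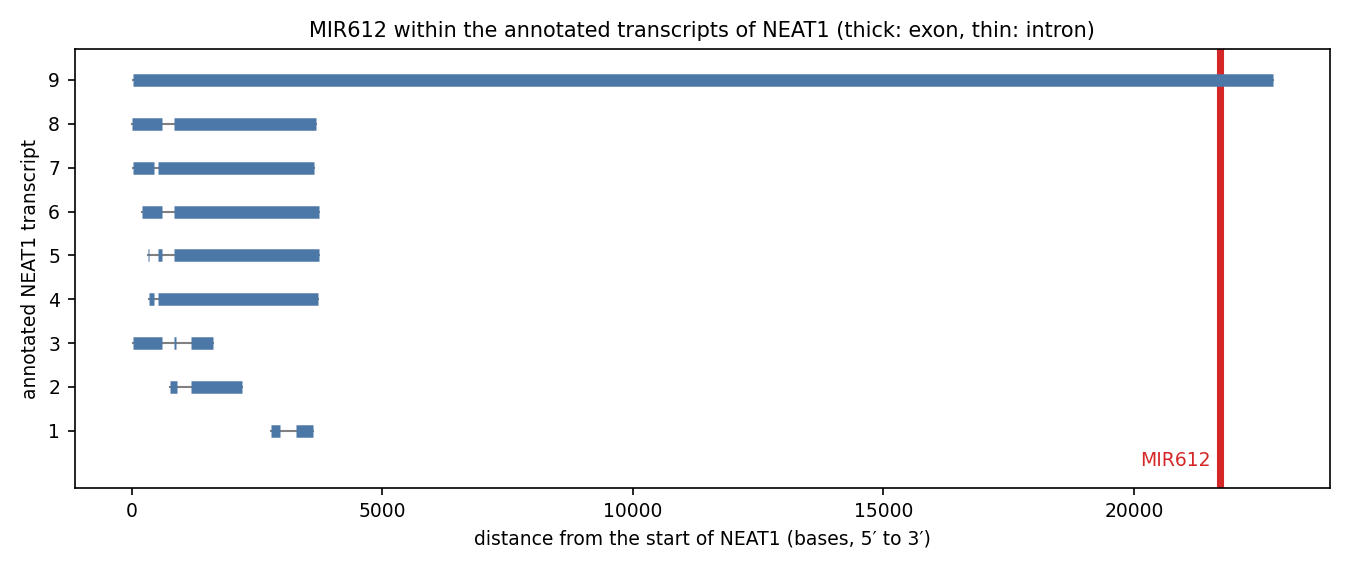
Annotated NEAT1 transcripts (GENCODE v44) by distance from the start of the gene in bases, with thick bars for exons, thin lines for introns and a red band for MIR612. The band crosses 1 of the 9 transcripts.

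Expected counts can be fractional where a read matched several genes or transcripts, and which of these shared reads with the 4 precursors was not tested. Per library, they summed to between 77264 and 121802 in A375 in DMSO and between 36955 and 51532 in A375 in dabrafenib. In A375-BIR the sums were between 106427 and 122792 in DMSO and between 35070 and 59899 in dabrafenib. The dabrafenib libraries were thus shallower in both lines. With CPM as counts relative to the library total, the limit that a count of 0 allows, 3 counts, was between 24.4 and 85.5 CPM over the libraries. MIR612 had a fractional value in 12 of 12 libraries, MIR345 in 8, MIR197 in 3 and MIR1180 in 0. By total count over all libraries, MIR197 ranked 73, MIR612 81, MIR1180 86 and MIR345 148 among the 1881 precursors, and all 4 passed the filter on low counts, which kept 175.

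The libraries were checked against lineage markers. Of 9 precursors listed for the melanocytic lineage, 6 had counts, and MIR204 was the most abundant with 1265 counts over all libraries, whereas MIR211 had 7 counts in A375 in DMSO and 8 in A375-BIR in DMSO, and MIR514A1, MIR514A2 and MIR514A3 had 0. The summed melanocytic level was between 3176 and 3365 CPM in the A375 DMSO libraries and between 199 and 228 CPM in those of A375-BIR, and between 5439 and 7413 CPM against between 351 and 735 CPM in dabrafenib. The sum was therefore lower in A375-BIR in both treatments, in the same direction as the 4 precursors. In DMSO it was mostly MIR204, with 524 counts in A375 and 51 in A375-BIR, and MIR509-1, MIR509-2 and MIR509-3. Among markers of other cell types, the liver marker MIR122, the erythroid MIR451A and the neuronal MIR124-1, MIR124-2 and MIR124-3 had 0 counts, and the other erythroid marker, MIR144, had 7 counts over 3 libraries. The most abundant of the remaining markers was the mesenchymal MIR143, with 363 counts, and the epithelial MIR205, haematopoietic MIR150, muscle MIR1-2 and neuronal MIR9-1 had 62, 47, 7.11 and 63.8 counts. In A375-BIR, the summed mesenchymal level was between 249 and 257 CPM in DMSO and between 627 and 1113 CPM in dabrafenib, and the summed haematopoietic level between 24.9 and 32.6 CPM and between 200 and 292 CPM, and the summed neuronal level between 73.3 and 224 CPM and between 250 and 357 CPM. In A375, the summed epithelial level was between 51.8 and 98.5 CPM in DMSO and between 105 and 136 CPM in dabrafenib. The mesenchymal and haematopoietic sums in A375 overlapped between treatments. By library totals, the summed neuronal level in A375 was at most 194 CPM in dabrafenib and at least 196 CPM in DMSO. With the TMM factors used below (trimmed mean of M values), these neuronal sums would overlap between treatments. The melanocytic sum was higher in every dabrafenib library than in every DMSO library of the same line. Between the lines in DMSO, the summed haematopoietic level was also lower in A375-BIR, with between 51.8 and 65.7 CPM in A375. These sums rested on few counts. Over all DMSO libraries of a line, MIR142, MIR223 and MIR150 had 3, 4.5 and 10 counts in A375 and 3, 1 and 6 in A375-BIR. The A375-BIR DMSO sums, also set against dabrafenib above, were thus near the limit of 3 counts, 24.4 to 28.2 CPM there. By library totals in dabrafenib, the mesenchymal, haematopoietic and neuronal sums were higher in every A375-BIR library than in every A375 library. The A375 libraries had at most 543, 194 and 194 CPM, and this direction is opposite to that of the 4 precursors. The TMM factors were 0.69 to 0.82 in A375 in dabrafenib and 1.05 to 1.12 in A375-BIR in dabrafenib. With them these sums would overlap between the lines, so this separation is given for library totals only. The other sums overlapped between the lines or were 0 in both. The part of these lists in the line difference of the 4 precursors and in their dabrafenib responses in either line was not tested.

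MIR612 showed the widest range of the 4. It had 29.6, 39.6 and 42.0 counts in the A375 DMSO libraries and 71.2, 134 and 76.4 in the A375 dabrafenib libraries, where the library totals were lower. In A375-BIR it had 23.6, 20.0 and 34.1 counts in DMSO and 28.1, 49.4 and 28.4 in dabrafenib. Scaled to CPM with TMM factors (trimmed mean of M values), the level was 368 ± 69.4 CPM in A375 in DMSO, 2719 ± 979 in A375 in dabrafenib, 203 ± 41.0 in A375-BIR in DMSO and 689 ± 107 in A375-BIR in dabrafenib (SD, n = 3). The order of the groups was thus A375 in dabrafenib, A375-BIR in dabrafenib, A375 in DMSO and A375-BIR in DMSO, and no library of one group overlapped with those of the next.

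MIR1180 had 66, 103 and 84 counts in A375 in DMSO and 29, 44 and 29 in A375 in dabrafenib. In A375-BIR it had 34, 46 and 63 counts in DMSO and 6, 19 and 10 in dabrafenib. In CPM, its level was 818 ± 56.2 and 987 ± 243 in A375 in DMSO and dabrafenib, and 368 ± 64.2 and 217 ± 62.3 in A375-BIR (SD, n = 3). The A375 groups overlapped with each other, and both stood above the A375-BIR groups in every library.

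MIR197 had the most counts of the 4 over all libraries, although MIR612 was above it in both dabrafenib groups. It had 101, 119 and 90 counts in A375 in DMSO and 47, 55 and 37 in A375 in dabrafenib. In A375-BIR it had 78, 83 and 76 counts in DMSO and 18.5, 34 and 26.1 in dabrafenib. Its level was 1020 ± 166 and 1336 ± 187 CPM in A375 in DMSO and dabrafenib, and 628 ± 92.7 and 510 ± 17.2 CPM in A375-BIR (SD, n = 3). The lowest A375 library, in DMSO, was at 904 CPM and the highest A375-BIR library, also in DMSO, at 707 CPM, so that the lines did not overlap.

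MIR345 was the least abundant, with 13, 23.3 and 14.7 counts in A375 in DMSO and 11, 15.3 and 15.7 in A375 in dabrafenib. In A375-BIR it had 5, 21 and 7.11 counts in DMSO and 2.67, 7.67 and 4.67 in dabrafenib, where the lowest value was under 3 counts. Its level was 163 ± 10.4 and 414 ± 123 CPM in A375 in DMSO and dabrafenib, and 86.1 ± 68.1 and 101 ± 19.2 CPM in A375-BIR (SD, n = 3). In DMSO, the A375-BIR library of replicate 2, at 165 CPM, reached into the A375 range of 156 to 175 CPM, and the remaining A375-BIR libraries were at 45.3 and 48.4 CPM. The lines therefore overlapped in DMSO for this precursor, and its log2 difference there, 0.91, was 1.76 without that library.

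**Figure D2:**
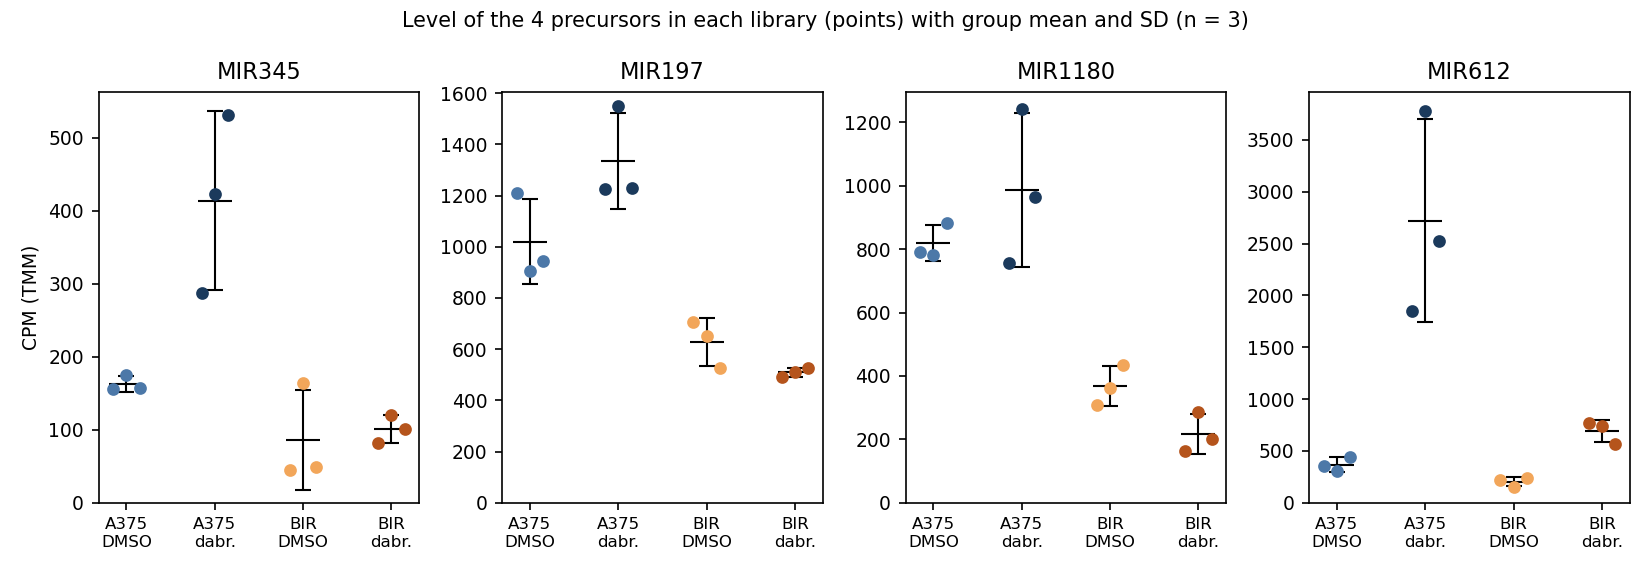
Level of each precursor in CPM with TMM factors (vertical axis, linear from 0) in the 12 libraries, by line and treatment (BIR, A375-BIR; dabr., dabrafenib), with points for libraries and black bars for the mean and SD of 3. MIR612 reaches between 1851 and 3781 CPM in A375 in dabrafenib, and MIR345 overlaps between the lines in DMSO.

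The 4 precursors were chosen by the difference between the lines, so its size is given as a description without a test. Log2 fold changes are A375 over A375-BIR. In DMSO they were 1.14 (SE 0.22) for MIR1180, 0.91 (SE 0.44) for MIR345, 0.84 (SE 0.29) for MIR612 and 0.70 (SE 0.19) for MIR197. In dabrafenib they were 2.12 (SE 0.27) for MIR1180, 1.98 (SE 0.27) for MIR612, 1.96 (SE 0.51) for MIR345 and 1.39 (SE 0.21) for MIR197. All A375 libraries were above all A375-BIR libraries for 3 of the 4 in DMSO and for 4 of 4 in dabrafenib, where 27.4% and 24.6% of the 175 tested precursors were separated in that direction. Lower levels in cells and fewer cells with the microRNA cannot be told apart in such bulk libraries.

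Over both treatments, the 4 stood at rank 12 (MIR1180), 17 (MIR345), 18 (MIR612) and 26 (MIR197) from the highest log2 fold change among the 175. MIR1180, at 1.63, stood between MIR4657 at 1.72 and MIR532 at 1.60. MIR345, at 1.43, and MIR612, at 1.41, were next to each other, between MIR584 at 1.44 and MIR632 at 1.36. MIR197, at 1.04, stood between MIRLET7D at 1.05 and MIR760 at 1.04. The 4 are therefore part of a continuous series of values in which other precursors differed more.

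The scaling of the libraries moved the line difference in dabrafenib. The libraries of A375 in dabrafenib had TMM factors of 0.69 to 0.82, and the remaining libraries 1.04 to 1.19. Total counts without these factors moved the median over all 175 precursors by -0.47 between the lines in dabrafenib, and the values of the 4 fell to 1.63 for MIR1180, 1.48 for MIR612, 1.48 for MIR345 and 0.90 for MIR197. In DMSO, the upper quartile moved the median by 0.25, and the 4 stood at 1.41 for MIR1180, 1.17 for MIR345, 1.11 for MIR612 and 0.96 for MIR197. Under the 5 scalings tried, the 4 values were positive in both treatments.

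Taken relative to the median of all 175 precursors under the same scaling, the differences hardly moved. In DMSO they ranged over the 5 scalings between 1.29 and 1.32 for MIR1180, 1.07 and 1.08 for MIR345, 0.99 and 1.02 for MIR612 and 0.86 and 0.87 for MIR197. In dabrafenib they ranged between 2.13 and 2.15 for MIR1180, 1.98 and 1.99 for MIR345, 1.98 and 2.01 for MIR612 and 1.40 and 1.42 for MIR197. A scaling moves all precursors of a library by the same factor.

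**Figure D3:**
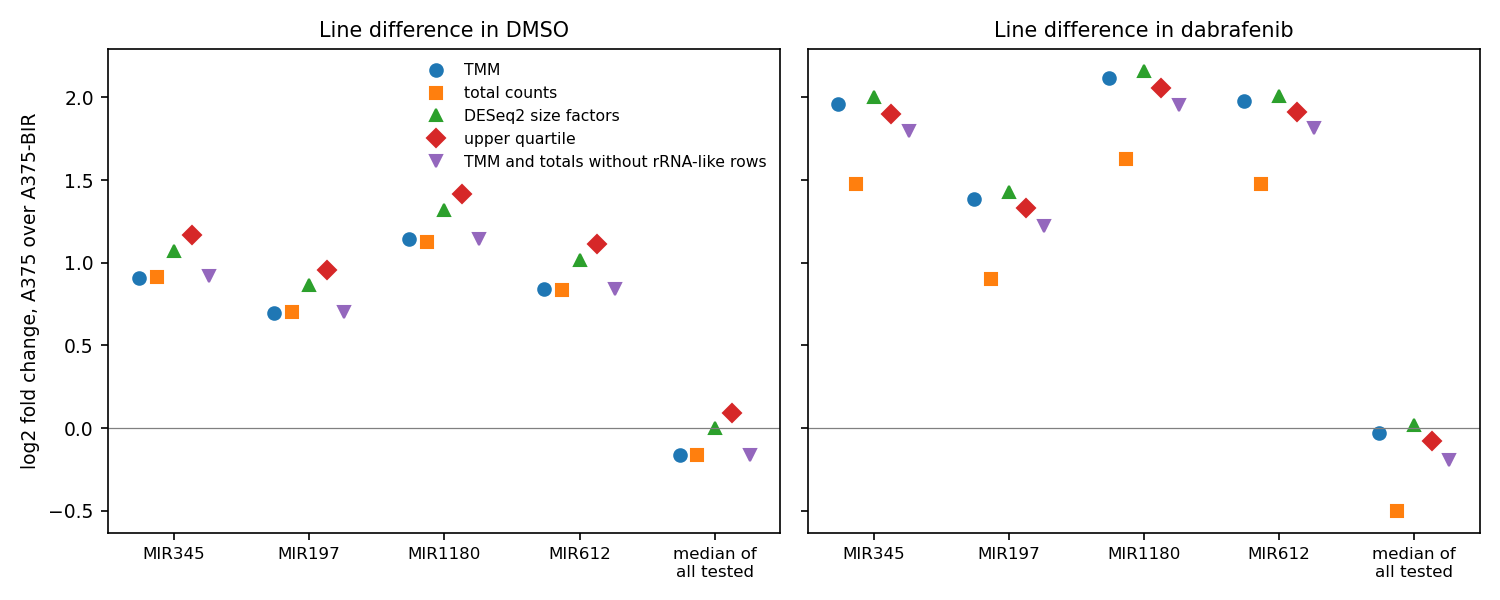
Log2 fold change of A375 over A375-BIR (vertical axis) for the 4 precursors and for the median of the 175 tested precursors, in DMSO (left) and in dabrafenib (right), with a symbol for each of 5 scalings. In dabrafenib, total counts place all values lowest, with the median at -0.50.

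Dabrafenib was then compared with DMSO within each line, a contrast that did not choose the precursors. The level of MIR612 rose in both lines. Its counts were fractional in 12 of 12 libraries, and it lies in an exon of NEAT1. Whether its reads came from the mature microRNA or from other fragments of NEAT1 was not tested. MIR345 passed the threshold in A375 with TMM factors, and MIR197 and MIR1180 did not pass it in either line. In A375, 2 of the 4 were called higher in dabrafenib at a false discovery rate (FDR) under 0.05, where 18.3% of all tested precursors were, and in A375-BIR it was 1 of the 4, against 13.1%. The comparisons between the lines and between treatments share libraries, so their values are given side by side and not related to each other.

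In A375, MIR612 was 7.40-fold higher in dabrafenib (log2 2.89, SE 0.27, FDR 1.5e-06, edgeR's quasi-likelihood test), and its 3 dabrafenib libraries were all above its 3 DMSO libraries. In A375-BIR it was 3.36-fold higher, with a log2 fold change of 1.75 (SE 0.30, FDR 6.9e-04), again with every dabrafenib library above every DMSO library. MIR612 was called in both lines under all 22 alternatives, with log2 fold changes between 2.36 and 3.10 in A375 and between 1.5 and 1.87 in A375-BIR. Relative to the median of all precursors, its response was between 2.72 and 2.75 in A375 over the 5 scalings. In A375-BIR it was between 1.79 and 1.80. A scaling moves all precursors of a library alike, so these ranges could hardly be wide and add no support.

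The rise of MIR612 could also be read without any scaling, as a ratio of counts within a library. For each count of MIR197, there were between 0.293 and 0.466 counts of MIR612 in the A375 DMSO libraries and between 1.51 and 2.44 in the A375 dabrafenib libraries. In A375-BIR the ratio was between 0.241 and 0.449 in DMSO and between 1.09 and 1.52 in dabrafenib. The ratios did not overlap between treatments in either line, and those of the lines overlapped in both treatments. With MIR1180 as the denominator, the ratio was between 0.385 and 0.499 in DMSO and between 2.45 and 3.05 in dabrafenib in A375, and between 0.435 and 0.694 and between 2.60 and 4.68 in A375-BIR. A ratio also holds any change of its denominator. In A375-BIR, MIR1180 had a log2 fold change of -0.71 and MIR197 of -0.29, neither past the threshold.

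MIR345 in A375 was 2.49-fold higher in dabrafenib (log2 1.31, SE 0.43, FDR 0.0358, edgeR), and its 3 dabrafenib libraries were above its 3 DMSO libraries. The call was lost with DESeq2's size factors (FDR 0.0778), upper quartile (0.122), total counts (0.154), both other filters on low counts (0.177 and 0.287) and DESeq2's Wald test (0.123), and without any one of the 3 A375 DMSO libraries or without replicate 2 or 3 of A375 in dabrafenib (FDR between 0.0854 and 0.161), while its log2 fold change stayed between 0.82 and 1.52. In A375-BIR its log2 fold change was 0.26 (SE 0.54, FDR 0.794), and it was 1.12 without replicate 2 of A375-BIR in DMSO and -0.08 without replicate 3. Neither of these values passed the threshold, with an FDR of 0.140 and 0.916.

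MIR1180 had a log2 fold change of 0.27 (SE 0.22, FDR 0.421) in A375 and of -0.71 (SE 0.27, FDR 0.0746) in A375-BIR, where its 3 dabrafenib libraries were below its 3 DMSO libraries. The second value passed the threshold with DESeq2's size factors (FDR 0.0208) and upper quartile (0.0233), and its FDR ranged between 0.0208 and 0.216 over the alternatives. MIR197 had a log2 fold change of 0.39 (SE 0.19, FDR 0.167) in A375 and of -0.29 (SE 0.21, FDR 0.322) in A375-BIR. The sign in A375 turned for both with total counts, to -0.24 for MIR1180 and -0.11 for MIR197, and also with upper quartile, no filter and the filter at 1 CPM. Relative to the median of all precursors under the same scaling, the values in A375 were positive under the 5 scalings, between 0.24 and 0.25 for MIR197 and between 0.11 and 0.13 for MIR1180. With no filter both were below that median, and with the filter at 1 CPM MIR1180 was below it and MIR197 above. With TMM, the 3 dabrafenib libraries of MIR197 in A375 were above its 3 DMSO libraries, and those of MIR1180 overlapped.

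Over all 175 precursors, 32 were higher and 12 lower in dabrafenib in A375, and 23 higher and 13 lower in A375-BIR. In A375 the split was 18 higher and 44 lower with total counts, 23 and 23 with DESeq2's size factors and 20 and 33 with upper quartile. In A375-BIR it was 23 higher and 20 lower with DESeq2's size factors, and 18 higher and 1 lower in a fit of only the A375-BIR libraries. The median log2 fold change of all precursors in A375 was 0.14 with TMM and -0.36 with total counts.

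**Figure D4:**
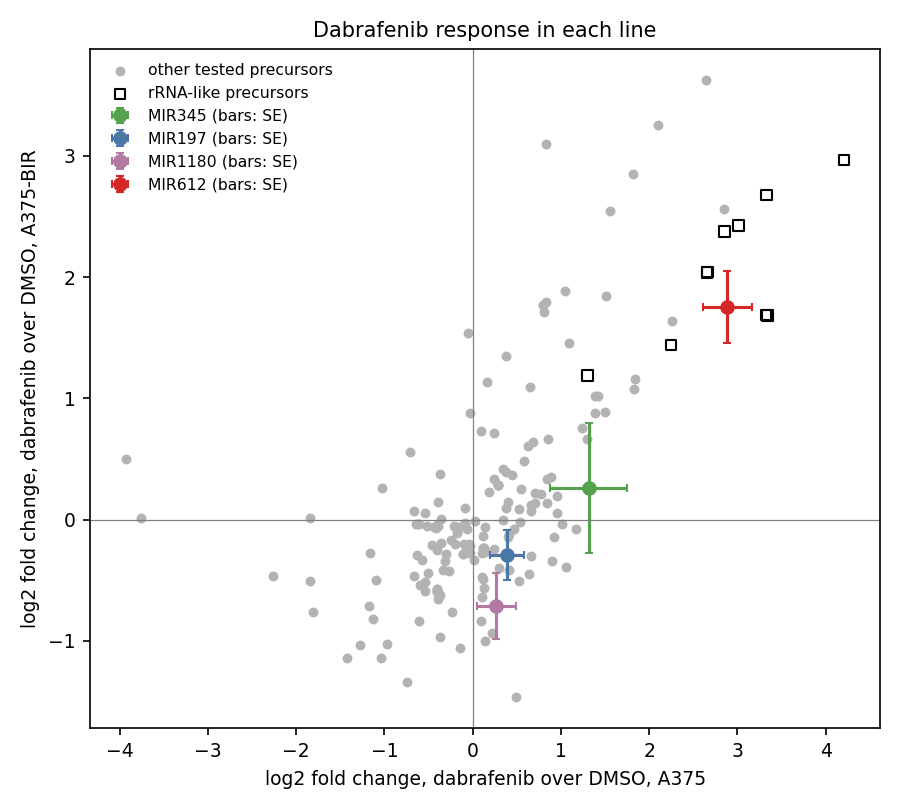
Log2 fold change of dabrafenib over DMSO in A375 (horizontal axis) and in A375-BIR (vertical axis) for the 175 tested precursors, with the 4 precursors in colour and their SE as bars, and open squares for precursors with at least 18 consecutive bases of the 45S pre-rRNA. MIR612, at 2.89 and 1.75, lies among the open squares.

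Whether A375 and A375-BIR responded differently to dabrafenib was tested as an interaction. Its log2 value was 1.14 (SE 0.40) for MIR612, 1.05 (SE 0.69) for MIR345, 0.98 (SE 0.35) for MIR1180 and 0.69 (SE 0.28) for MIR197, all towards a higher response in A375. Without replicate 2 of A375-BIR in DMSO, the value of MIR345 was 0.20. With edgeR, 0 of the 4 passed the threshold, where 3.43% of the 175 did, with an FDR of 0.190 for MIR612, MIR1180 and MIR197 and of 0.464 for MIR345. The interaction is also the line difference in dabrafenib less that in DMSO, and the line difference chose the 4, so the test is not independent of that choice and supports nothing about them. At an unadjusted p under 0.05 there were 3 of the 4 and 34 of the 175, and DESeq2's Wald test called 0 of the 4 and 6 of the 175 at an FDR under 0.05. With total counts the values were 0.64 for MIR612, 0.57 for MIR345, 0.50 for MIR1180 and 0.20 for MIR197, and 0 of the 4 and 28 of the 175 had an unadjusted p under 0.05. Over all precursors 5 were positive and 1 negative among those called, and 3 and 5 with total counts and 2 and 2 with upper quartile.

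MIR612 was set beside precursors that resemble ribosomal RNA, since these took a larger share of the dabrafenib libraries. Of the 1881 precursors, 17 hold at least 18 consecutive bases of the 45S pre-rRNA, the precursor of ribosomal RNA, and MIR612 is not among them. This mark used GENCODE v44 transcript sequences, since the RefSeq hairpins cover only part of the precursors and not MIR612. Their share of the counts was between 3.22% and 5.59% in A375 in DMSO, 20.9% and 26.3% in A375 in dabrafenib, 2.65% and 4.57% in A375-BIR in DMSO and 14.4% and 16.9% in A375-BIR in dabrafenib. Of the 10 that were tested, 9 were called higher in dabrafenib in A375 and 9 in A375-BIR, with median log2 fold changes of 2.93 and 2.04, beside 0.14 and -0.04 over all precursors. The part of this share in the response of MIR612 was not tested, and with totals and TMM factors taken without these precursors MIR612 had log2 fold changes of 2.75 in A375 and 1.77 in A375-BIR.

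**Figure D5:**
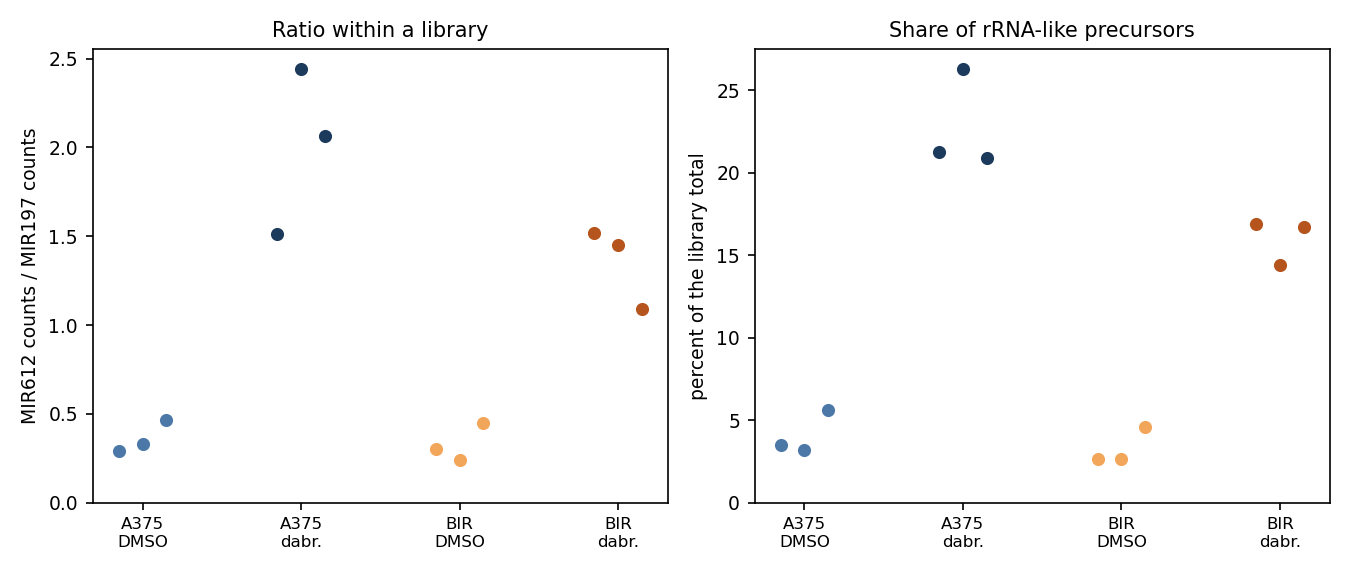
Counts of MIR612 per count of MIR197 (left) and share of the library total on precursors with at least 18 consecutive bases of the 45S pre-rRNA, in percent (right), with a point for each of the 12 libraries (BIR, A375-BIR; dabr., dabrafenib). Both are higher in dabrafenib than in DMSO in each line, with no overlap.

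Leaving out the 4 themselves, the precursors most like each of the 4 were found by Pearson's r of log2 CPM over the 12 libraries, which share line, treatment and depth, so that r describes these libraries only. For MIR612 they were MIR663A (0.98), MIR4508 (0.97) and the precursor ENSG00000264063.1 (0.95), all 3 of which are among these 17. MIR663A had log2 fold changes in dabrafenib of 4.21 (SE 0.22) in A375 and 2.97 (SE 0.21) in A375-BIR. For MIR1180 the closest outside the 4 were MIRLET7D (0.92), MIR671 (0.92) and MIR320A (0.91), and for MIR197 they were MIRLET7F1 (0.91), MIR204 (0.91) and MIRLET7B (0.91). For MIR345 they were MIRLET7B (0.92), MIR509-3 (0.85) and MIR199B (0.85). None of those named for MIR1180, MIR197 and MIR345 is among the 17. Among the 4 themselves, r was highest between MIR197 and MIR1180 (0.92), above each precursor named for MIR197 and above MIR320A for MIR1180, and lowest between MIR1180 and MIR612 (0.43).

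Precursors were also described by the kind of host. Of 106 precursors in an exon of a long non-coding RNA on the same strand, the kind of MIR612, 30 were tested, and 5 were higher and 1 lower in dabrafenib in A375, with a median log2 fold change of 0.03, beside 32 higher and 12 lower of 175 and a median of 0.14 over all precursors. In A375-BIR 4 were higher and 2 lower, with a median of -0.07, beside 23 higher and 13 lower and a median of -0.04. Without MIR612 itself, 4 of 29 were higher and 1 lower in A375, with a median of -0.03, and 3 higher and 2 lower in A375-BIR, with a median of -0.08. Besides MIR612, MIR4449, named after its values were seen, was higher in both lines, with 2.26 (SE 0.28, FDR 2.9e-05) in A375 and 1.64 (SE 0.27, FDR 5.6e-04) in A375-BIR by edgeR. Of 60 tested precursors in an intron of a protein-coding gene, the kind of MIR1180, 6 were higher and 6 lower in A375 and the same numbers in A375-BIR, with medians of 0.19 and -0.09. Of the 85 others, which include MIR197 and MIR345, 21 were higher and 5 lower in A375, and 13 higher and 5 lower in A375-BIR, with medians of 0.29 and 0.02. Without the rRNA-like rows there were 76 others, of which 13 were higher and 5 lower in A375, and 5 higher and 5 lower in A375-BIR, with medians of 0.13 and -0.04.

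Near MIR197 and MIR1180, no other precursor of the files lies within 1000000 bases. Within that distance of MIR612 there are 8, of which 6 had a count and 1, MIR192, was tested. MIR192, 553212 bases away, had log2 fold changes in dabrafenib of 0.96 (SE 0.50, FDR 0.190) in A375 and 0.20 (SE 0.43, FDR 0.805) in A375-BIR by edgeR. Within that distance of MIR345 there are 56, of which 24 had a count and 1, MIR342, was tested. MIR342, 198106 bases away, was higher in dabrafenib in A375 (log2 1.30, SE 0.40, FDR 0.0265), and had 0.66 (SE 0.33, FDR 0.167) in A375-BIR. Between the lines in DMSO it had a log2 fold change of -0.92 (SE 0.34), and MIR345 had 0.91.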

How the data were processed

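The 12 small RNA libraries were grouped by their labels, with no library removed. The authors trimmed adapters, discarded reads of ribosomal RNA and other contaminants, used RSEM 1.2.25 on Ensembl genes (hg38) and deposited expected counts per precursor, not normalized. Of 1881 identifiers, 1877 matched GENCODE v44. Expected counts, rounded, were fitted in edgeR 4.0.16 (R 4.3.3) after filterByExpr and TMM, with a mean for each of the 4 groups, and compared by the quasi-likelihood test. P-values were adjusted by Benjamini-Hochberg over 175 precursors, with a threshold of 0.05. CPM with TMM factors were computed from rounded counts of the tested precursors, and the limit of 3 counts from library totals, for counting error only. Each SE was the log2 fold change divided by the root of F. The members and lists were chosen with earlier results of these data known. Named precursors are the 4 members, tested ones within 1000000 bases, those with a shared seed or 18 shared bases, the 3 most correlated, those adjacent in line difference, and examples from host and marker lists. Deviations from group means of same-numbered A375 and A375-BIR libraries correlated at 0.11, 0.22 and 0.30 in DMSO. In dabrafenib these correlations were 0.15, 0.05 and -0.04. No label names a shared batch, and whether the numbers mark a pairing was not tested. The fit was tested on data simulated with known log2 changes of 2 in either direction. It recovered 33 of 41 changed precursors for the response in A375, with 1 false call. For A375-BIR it recovered 45 of 48 with 5 false calls, and for the difference in response 36 of 43 with 3. The simulation did not model the rise of the rRNA-like share. Alternatives were DESeq2 1.42.0's size factors or Wald test, total counts, upper quartile, TMM and totals without rRNA-like precursors, other filters, only the libraries compared, the replicate block, rounding down, and each library left out. Python 3.11.15, pandas 2.3.3 and matplotlib 3.10.9 made the tables and figures.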

Additional observations from a re-analysis of the deposited data

How the results depend on the processing

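MIR612 was called higher in dabrafenib in both lines under all 22 alternatives, and the line differences of the 4 precursors, which chose them, were positive under all of them. The response of MIR345 in A375 (log2 1.31) was no longer past the threshold at 1.11 with DESeq2's size factors, 0.82 with total counts, 0.92 with upper quartile, 0.92 with no filter, 0.90 with 1 CPM in 3 libraries and 1.12 with DESeq2's Wald test, and ranged between 1.11 and 1.52 with a library left out. The responses of MIR197 and MIR1180 in A375, not called, reversed to -0.11 and -0.24 with total counts and -0.0011 and -0.13 with upper quartile. They were -0.0096 and -0.13 with no filter and -0.029 and -0.15 with 1 CPM. The median of all precursors moved by -0.50 with total counts and -0.39 with upper quartile. Relative to it both were positive under the 5 scalings, but a scaling moves all precursors of a library alike, so that sign could hardly change. With no filter both were below the median of the precursors tested there, and with 1 CPM MIR1180 was below it and MIR197 above. The response of MIR345 in A375-BIR reversed to -0.025 with counts rounded down and ranged between -0.080 and 1.12 with a library left out. MIR1180 in A375-BIR passed the threshold at -0.79 with DESeq2's size factors and -0.78 with upper quartile. The cause was not tested.

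Line differences in DMSO moved by more than 1 SD of log2 CPM between libraries of a group with upper quartile, to 0.96 for MIR197, 1.41 for MIR1180 and 1.11 for MIR612, and to 1.32 for MIR1180 with DESeq2's Wald test, which also takes DESeq2's size factors (1.32 with these alone); MIR345 ranged between 0.62 and 1.76 with a library left out, the highest without replicate 2 of A375-BIR in DMSO, and its difference in response between 0.20 and 1.33. In dabrafenib they moved with total counts to 1.48 for MIR345, 0.90 for MIR197, 1.63 for MIR1180 and 1.48 for MIR612, and for MIR197 to 1.22 without rRNA-like precursors, 1.15 with no filter, 1.14 with 1 CPM and 1.19 with only the libraries compared.

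Precursors called in A375-BIR numbered 36, 19 with only the libraries compared and between 20 and 46 with a library left out (20 and 22 without replicates 1 and 2 of A375-BIR in DMSO). Those called for the difference in response numbered 6, and between 3 and 6 with a library left out (3 without replicate 1 of A375 in DMSO or replicate 1 or 2 of A375 in dabrafenib).

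With the replicate block, 34 precursors were called in A375 in place of 44, 26 in A375-BIR (20 higher, 6 lower) in place of 36 and 6 for the difference in response, and no call of the 4 changed. Same-numbered libraries of A375-BIR in DMSO and dabrafenib had correlations of deviations of -0.32, 0.01 and -0.54, and those of A375 -0.09, 0.02 and 0.06. These values gave no sign that the numbers pair the treatments. MIR345 had the fewest counts, 2.67 to 23.3 per library.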
